A study of Mus musculus with 8 samples.

Results

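Genes of endothelial cells, the cells that line blood vessels, were examined in 8 primary mouse osteosarcomas. The set held 32 genes, listed by symbol as genes of endothelial cells. The list was chosen with earlier results of these data known. All 32 were measured, each by 1 probe set, among 19938 genes on the array. Every tumour came from a C57Bl6 mouse and gave 1 array of log2 expression values. In the 4 shRNA OS tumours p53 was targeted by the transgenic hairpin P53.1224. The 4 Cre:lox OS tumours carried floxed p53 alleles (P53fl/fl). The series title calls the hairpin lineage restricted, and the promoter driving it or Cre is not given in the sources used here. Of the shRNA OS tumours, replicates 1, 3 and 4 were Rbfl/+ and replicate 2 was Rb+/+, and replicate 4 came from the humerus and the others from the tibia. Of the Cre:lox OS tumours, replicate 1 was Rb+/+ and replicates 2, 3 and 4 were Rbfl/+. Replicate 1 came from the scapula, replicate 2 from the humerus and replicates 3 and 4 from the tibia. The labels give no treatment, age or sex.

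Endothelial cells respond to VEGF through the receptor tyrosine kinases Kdr, Flt1 and Flt4, and to angiopoietins through Tek, which pairs with Tie1. Their identity is held by ETS factors such as Erg and Fli1 and by the SoxF factors Sox7, Sox17 and Sox18, and their contacts are built from VE-cadherin (Cdh5), Pecam1, Esam and claudin 5 (Cldn5). Sprouting vessels are led by tip cells, which are known to express Apln, Angpt2 and Esm1, and growing bone carries vessels rich in Pecam1 and endomucin (Emcn). The tumours were measured in bulk, so fewer endothelial cells and less RNA per endothelial cell cannot be told apart.

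As a reading of the labelled tumour type, the mean level of 10 osteoblast and bone matrix genes ran from 10.84 to 12.09 (log2) over the 8 tumours. Array medians ran from 7.13 to 7.23, and precision is limited by having 8 arrays. The spread of values differed between arrays. The interquartile range was 2.59 in shRNA OS replicate 2 and 2.79 in Cre:lox OS replicate 3, against 2.95 to 3.19 in the others. One array, shRNA OS replicate 2, was least like the others (mean r of 0.941, where the remaining 7 had 0.961 to 0.968).

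RefSeq promoter windows (GRCm38.p6, 250 bases before to 50 bases after a start) were held for 14 of the 32 genes, in 19 windows. The letters AGGAAG, which contain the core that ETS factors bind, were found on either strand in 8 of the 14 genes (57.1%), against 38.4% of 27025 genes. The genes were Flt1, Tie1, Apln, Erg, Emcn, Egfl7, Robo4 and Eng. By window the counts were 9 of 19 (47.4%) against 35.4% of 32851. The letters ACAAT or their reverse complement, the core that Sox factors bind, were found in 5 of the 14 genes (35.7%, against 34.4%). AGATAA or its reverse complement, which GATA factors bind, occurred in 3 (21.4%, against 12.7%). In none of the 19 windows did matches of different motifs overlap. The windows of Tie1, Emcn, Egfl7 and Kdr are shown because, of the 14 genes with a window, these followed Cdh5 most closely from tumour to tumour, and that of Apln because it ran the other way. The Egfl7 window is the most upstream of 3. Capitals mark AGGAAG or its reverse complement CTTCCT, which is absent from the Kdr window.
Tie1, chr4:118489800-118490099, minus strand: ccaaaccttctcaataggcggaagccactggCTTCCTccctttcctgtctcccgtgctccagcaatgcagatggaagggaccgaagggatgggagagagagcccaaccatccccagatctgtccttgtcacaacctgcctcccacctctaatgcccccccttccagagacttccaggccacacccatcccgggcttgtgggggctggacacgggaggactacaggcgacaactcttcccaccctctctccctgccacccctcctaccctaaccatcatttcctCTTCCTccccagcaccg
Emcn, chr3:137340828-137341127, plus strand: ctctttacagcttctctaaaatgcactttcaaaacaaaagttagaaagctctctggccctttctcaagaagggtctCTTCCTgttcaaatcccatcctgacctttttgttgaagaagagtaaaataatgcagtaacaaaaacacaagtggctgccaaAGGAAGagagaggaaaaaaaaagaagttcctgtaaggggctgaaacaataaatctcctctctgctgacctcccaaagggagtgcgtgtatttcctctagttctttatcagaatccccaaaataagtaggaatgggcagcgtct
Egfl7, chr2:26580833-26581132, plus strand: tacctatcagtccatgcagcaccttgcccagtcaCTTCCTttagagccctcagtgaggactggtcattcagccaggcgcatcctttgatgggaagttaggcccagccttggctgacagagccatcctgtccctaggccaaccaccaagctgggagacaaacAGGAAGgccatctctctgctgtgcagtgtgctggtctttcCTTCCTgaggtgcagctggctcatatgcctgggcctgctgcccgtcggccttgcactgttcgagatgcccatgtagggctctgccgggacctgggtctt
Kdr, chr5:75978406-75978705, minus strand: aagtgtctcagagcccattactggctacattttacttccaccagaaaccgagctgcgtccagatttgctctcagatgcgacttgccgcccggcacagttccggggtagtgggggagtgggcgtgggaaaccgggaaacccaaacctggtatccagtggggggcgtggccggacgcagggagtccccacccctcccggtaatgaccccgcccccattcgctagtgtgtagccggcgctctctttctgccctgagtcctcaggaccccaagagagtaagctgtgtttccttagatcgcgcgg
Apln, chrX:48034804-48035103, minus strand: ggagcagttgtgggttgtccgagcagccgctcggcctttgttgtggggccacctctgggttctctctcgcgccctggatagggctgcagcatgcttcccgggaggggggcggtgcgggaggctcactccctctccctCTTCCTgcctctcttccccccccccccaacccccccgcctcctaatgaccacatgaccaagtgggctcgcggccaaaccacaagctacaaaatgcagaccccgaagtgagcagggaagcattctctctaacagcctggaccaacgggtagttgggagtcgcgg

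The comparison of models asked whether vessels were represented alike in tumours arising with a p53 hairpin and in those arising with floxed p53. Most endothelial genes had somewhat higher means in shRNA OS, 24 of 32, against 51.9% of all genes. The median difference was 0.17 on the log2 scale, against 0.009 for all genes. Flt4, Tek and Cldn5 lay at the upper end and Apln alone lay far below 0. No endothelial gene passed limma's test over all genes, where 0.0201% of genes passed, and the smallest adjusted p was 0.306, for Apln. At an unadjusted p under 0.05 there were 5 (15.6%), namely Flt4, Tek, Cldn5 and Nos3 higher and Apln lower, where 9.63% of all genes reached it (3.61% higher and 6.02% lower). In none of the 32 did the models separate without overlap, against 5.44% of all genes.

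**Figure D1:**
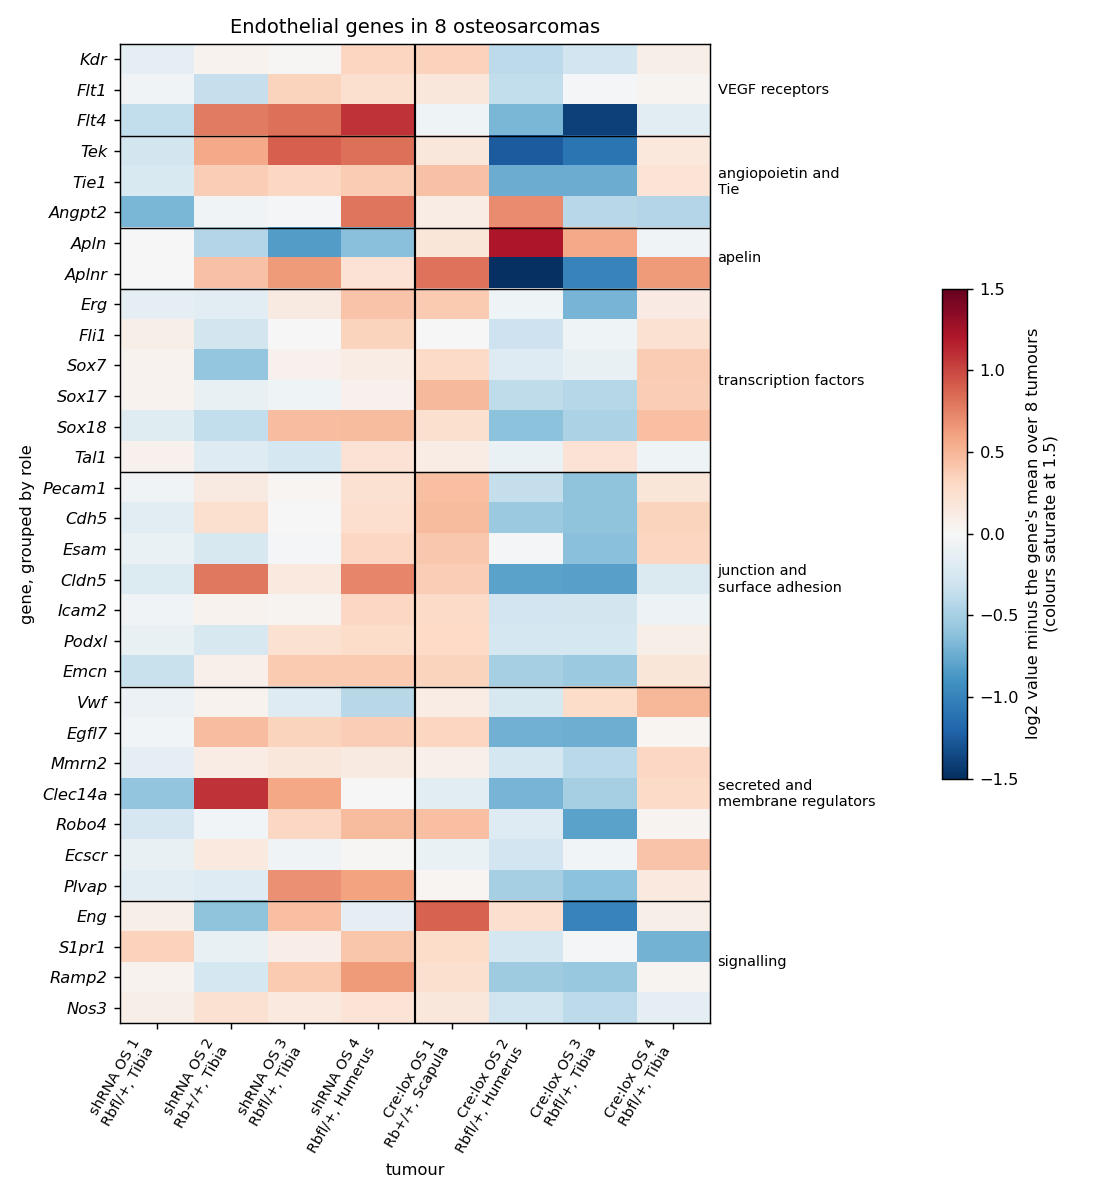
Log2 value of each of 32 endothelial genes (rows, grouped by role) in each of 8 tumours (columns), minus the gene's mean over the 8 tumours. Cre:lox OS replicates 2 and 3 are blue in most rows and hold the 2 lowest values of 18 genes, while Apln is highest in those same tumours.

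Among the VEGF receptors, Flt4, the receptor for VEGF-C that is best known from lymphatic vessels and also marks sprouting vessels, differed most. It stood at 7.90, 9.05, 9.10 and 9.36 in shRNA OS replicates 1 to 4 and at 8.21, 7.59, 6.88 and 8.10 in Cre:lox OS replicates 1 to 4. Apart from shRNA OS replicate 1, the shRNA OS tumours lay above every Cre:lox OS tumour. The difference was 1.16 (SE 0.37, limma adjusted p = 0.347), with 8.85 ± 0.65 against 7.69 ± 0.61 (SD, n = 4 each). Kdr, the main signalling receptor for VEGF-A, was 8.64, 8.83, 8.79 and 9.09 in shRNA OS and 9.12, 8.38, 8.49 and 8.86 in Cre:lox OS. The models overlapped widely and differed by 0.13 (SE 0.19). Flt1, which also acts as a decoy for VEGF-A, differed by 0.09 (SE 0.19).

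Tek, the angiopoietin receptor, followed the pattern of Flt4. Its values were 8.23, 9.06, 9.40 and 9.32 in shRNA OS and 8.67, 7.25, 7.40 and 8.66 in Cre:lox OS. Replicate 1 of shRNA OS fell among the Cre:lox OS tumours, and Cre:lox OS replicates 2 and 3 were the lowest of all. The difference was 1.01 (SE 0.39, limma adjusted p = 0.439), with 9.01 ± 0.54 against 8.0 ± 0.77 (SD, n = 4 each). Its partner Tie1 showed the same low pair. Tie1 stood at 8.82, 9.41, 9.36 and 9.42 in shRNA OS and at 9.49, 8.30, 8.30 and 9.25 in Cre:lox OS, a difference of 0.42 (SE 0.29). Angpt2, a ligand that destabilises vessels and is released by endothelium itself, differed by only 0.02 (SE 0.34).

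The apelin pair went opposite ways. Apln, the ligand, was 8.53, 8.09, 7.69 and 7.91 in shRNA OS and 8.72, 9.75, 9.10 and 8.48 in Cre:lox OS. Only shRNA OS replicate 1 and Cre:lox OS replicate 4 overlapped, and the highest values belonged to Cre:lox OS replicates 2 and 3. The difference was -0.96 (SE 0.28, limma adjusted p = 0.306), with 8.06 ± 0.36 against 9.01 ± 0.56 (SD, n = 4 each). Its receptor Aplnr differed by 0.64 (SE 0.52). It was 9.70, 10.14, 10.34 and 9.91 in shRNA OS, and in Cre:lox OS it was 10.51 and 10.34 in replicates 1 and 4 but 7.97 and 8.69 in replicates 2 and 3. The receptor was therefore lowest where its ligand was highest.

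Of the 7 junction and surface proteins, 6 had higher means in shRNA OS, with a median difference of 0.17. Cldn5, which seals tight junctions, stood at 9.23, 10.24, 9.59 and 10.17 in shRNA OS and at 9.81, 8.64, 8.62 and 9.22 in Cre:lox OS. The difference was 0.73 (SE 0.31, limma adjusted p = 0.491). The adherens junction cadherin Cdh5 was 11.09, 11.50, 11.26 and 11.50 in shRNA OS and 11.73, 10.70, 10.65 and 11.58 in Cre:lox OS. The shRNA OS tumours sat between a high and a low pair of Cre:lox OS tumours, and the means differed by 0.17 (SE 0.26). Pecam1, the platelet and endothelial adhesion molecule, was 9.57, 9.76, 9.66 and 9.85 against 10.07, 9.27, 9.02 and 9.80, a difference of 0.17 (SE 0.22). Cre:lox OS again split into a high and a low pair, with shRNA OS replicate 4 inside the high one. Without Cre:lox OS replicate 3 the differences of Cdh5 and Pecam1 came to -0.0009 and -0.0063. Emcn (0.27), Icam2 (0.17) and the sialomucin Podxl (0.08) had small positive differences, and that of Esam was -0.03.

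The transcription factors differed least, with a median difference of 0.02 over 6 genes and 3 of them higher. Sox18 (0.19), Erg (0.13) and Fli1 (0.08) had slightly higher means in shRNA OS. Sox7 (-0.18), Tal1 (-0.08), a factor shared with blood precursors, and Sox17 (-0.03) had slightly lower ones. Each difference lay within 1 SE of 0.

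Among the secreted and membrane regulators, 5 of 7 had higher means in shRNA OS. Egfl7, a matrix protein of vessel sprouts, was 9.69, 10.20, 10.07 and 10.10 in shRNA OS and 10.05, 9.01, 9.0 and 9.76 in Cre:lox OS, a difference of 0.56 (SE 0.25). Plvap, which forms the diaphragms of fenestrated capillaries, was 9.12, 9.10, 9.97 and 9.89 against 9.32, 8.79, 8.67 and 9.43, a difference of 0.47 (SE 0.26). Vwf, the clotting factor stored in endothelium and platelets, leaned the other way. It stood at 7.72, 7.85, 7.61 and 7.39 in shRNA OS and at 7.91, 7.57, 8.08 and 8.30 in Cre:lox OS, a difference of -0.32 (SE 0.18). Clec14a, a surface lectin that binds Mmrn2, ranged more widely within shRNA OS, at 6.34, 8.02, 7.52 and 6.94, than between the models, where the difference was 0.53 (SE 0.35). In Cre:lox OS it was 6.77, 6.25, 6.44 and 7.22. Robo4 (0.25) and Mmrn2 (0.14) were close to the median of the set, and Ecscr differed by less than 0.01 on this scale.

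Of the 4 signalling genes, Nos3, the endothelial nitric oxide synthase, varied least within shRNA OS. Its values were 8.30, 8.44, 8.36 and 8.42 there and 8.38, 7.91, 7.82 and 8.07 in Cre:lox OS. Only Cre:lox OS replicate 1 reached the shRNA OS range, and the difference was 0.33 (SE 0.15, limma adjusted p = 0.513). S1pr1, the sphingosine phosphate receptor, was 10.83, 10.37, 10.58 and 10.90 against 10.76, 10.22, 10.46 and 9.78, a difference of 0.37 (SE 0.22). Ramp2, the partner of the adrenomedullin receptor, was 8.88, 8.56, 9.23 and 9.47 against 9.07, 8.30, 8.26 and 8.87, a difference of 0.41 (SE 0.25). Endoglin (Eng), a co-receptor for BMP and TGF-beta, differed by -0.11 (SE 0.37).

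**Figure D2:**
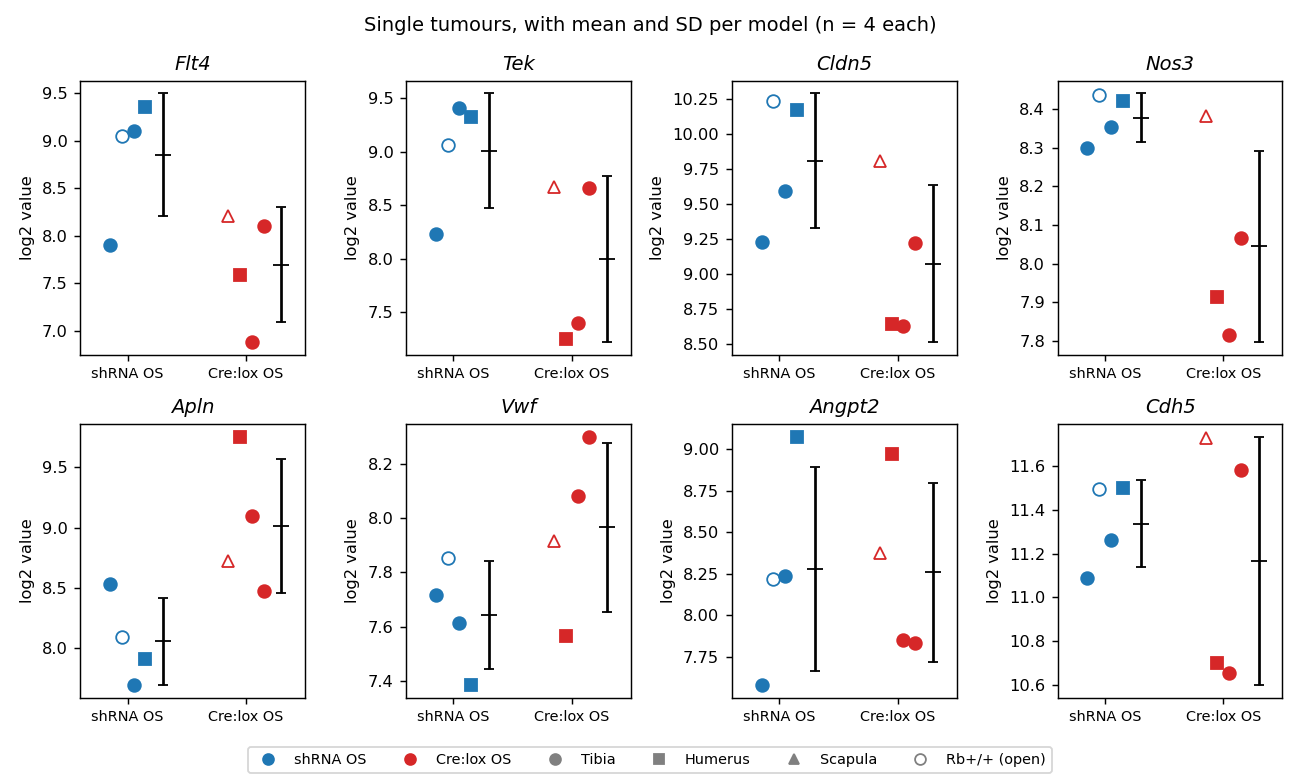
Log2 values of 8 endothelial genes in single tumours of each model (colour), with bone site by symbol and Rb+/+ tumours open; black bars give the mean and SD per model (n = 4 each). The models overlap in every gene, Angpt2 separates the tibial circles from the other symbols, and Cdh5 shows Cre:lox OS split into a high and a low pair.

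**Figure D3:**
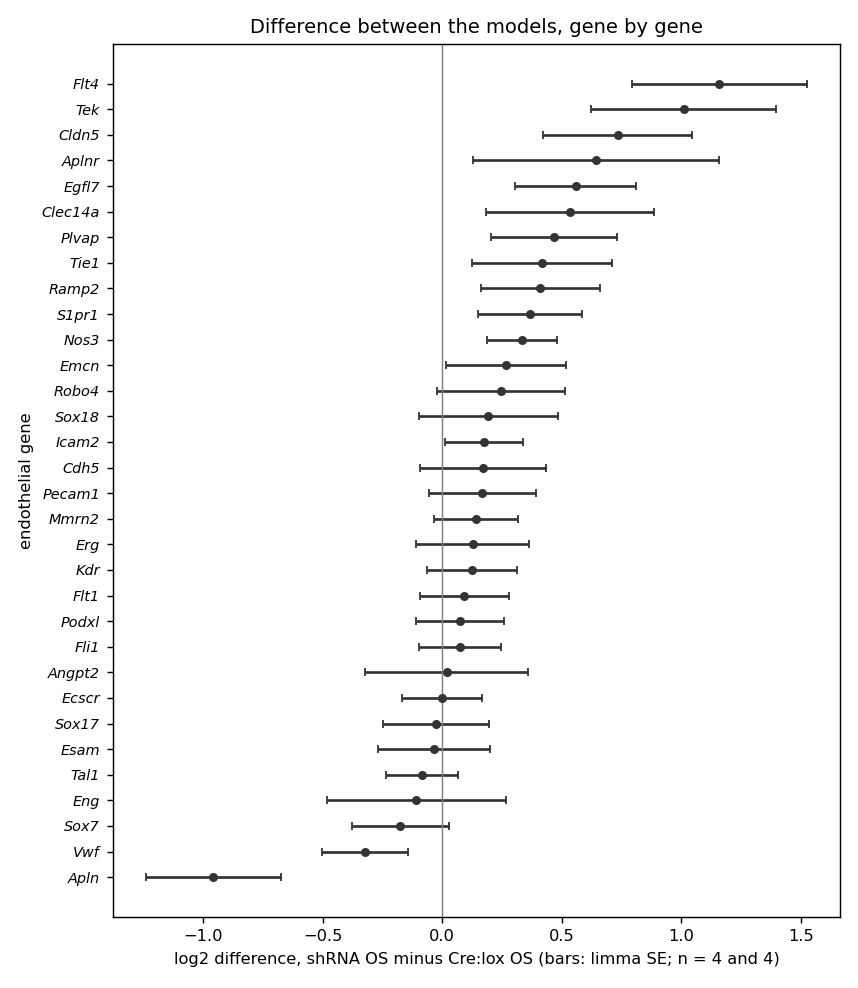
Log2 difference between the models for each of 32 endothelial genes, shRNA OS minus Cre:lox OS, with limma standard errors (n = 4 and 4). The points run from -0.96 for Apln to 1.16 for Flt4, and most lie between 0 and 0.5.

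The count of 5 at an unadjusted p under 0.05 depended on single tumours. Leaving out replicate 2 of either model gave 3, and leaving out replicate 3 of either model or replicate 4 of shRNA OS gave 2. Dropping Cre:lox OS replicate 1 gave 8. Rbfl/+ tumours alone gave 9 and a median difference of 0.32, and tibial tumours alone gave 1. The share of all genes at this threshold in each of these runs is not given here, so the counts describe the set alone. Among single genes, S1pr1 came to 0.19 and Vwf to -0.21 when Cre:lox OS replicate 4 was left out, Ramp2 to 0.27 when shRNA OS replicate 4 was, and Kdr to 0.015 when Cre:lox OS replicate 2 was.

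Genes of vessel-associated signals and cells were set beside these values. Of 45 other endothelial genes, the mean was higher in shRNA OS for 26 and lower for 19, and the median difference was 0.05. None passed over all genes and 7 had an unadjusted p under 0.05 (15.6%, against 9.63% of all genes). Esm1, a secreted product of tip cells, had a difference of -1.31 (SE 0.29) and Tm4sf1, a surface protein of vessel sprouts, -0.78 (SE 0.20). These 2 were the only genes of the 45 without overlap between the models (4.44%, against 5.44% of all genes). Stab2, a scavenger receptor of sinusoidal endothelium, had a difference of 1.07 (SE 0.33). Of 11 angiogenic ligands 3 had higher means and 8 lower, with a median difference of -0.22. At an unadjusted p under 0.05 there were 4 (36.4%, against 9.63% of all genes). Angpt1, the activating ligand of Tek, was 9.54, 8.85, 9.23 and 10.26 in shRNA OS and 7.70, 8.83, 6.03 and 7.43 in Cre:lox OS. The models did not overlap in this gene alone of the 11 ligands (9.09%, against 5.44% of all genes). The difference was 1.97 (SE 0.52), and it did not pass over all genes (limma adjusted p = 0.249). Angpt4, another Tek ligand, differed by 0.81 (SE 0.32). Vegfa, the chief ligand of Kdr and Flt1, was 10.05, 9.74, 9.71 and 9.74 in shRNA OS and 9.95, 11.00, 10.60 and 10.11 in Cre:lox OS, a difference of -0.61 (SE 0.23, limma adjusted p = 0.428).

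Markers of other cell types, some of which share genes with endothelium, were measured too, and their part in the endothelial values was not tested. The 15 pericyte and smooth muscle genes had a median difference of -0.09, with 7 higher and 8 lower, and their mean level ran from 8.52 to 8.69 in shRNA OS and from 8.37 to 8.94 in Cre:lox OS. Acta2 (1.44) and Abcc9 (0.89) had higher and Ndufa4l2 (-1.19) lower means, and the pericyte gene Rgs5 differed by -0.63 (SE 0.42). The 9 megakaryocyte and platelet genes, which bear on Vwf, Pecam1 and Fli1, had a median difference of 0.03 and mean levels of 7.39 to 7.50 and 7.47 to 7.71. Among them Ppbp (-0.79) did not overlap between the models, Itga2b (-0.21) and Gp5 (0.22) did, and Pf4 differed by -0.80 (SE 0.53). The 14 leukocyte and macrophage genes all lay lower on average in shRNA OS, where their mean level ran from 9.77 to 11.27, against 10.33 to 11.48 in Cre:lox OS. Their median difference was -0.58, with Itgam at -1.03, Lyz2 at -1.03, Cd14 at -0.99 and Csf1r at -0.13. The 6 erythroid genes had a median difference of -0.0078 and mean levels of 6.08 to 6.65 and 6.08 to 6.47, with Car1 at 0.81, Rhag at -0.11 and Alas2 at -0.20. Of 10 osteoblast and bone matrix genes, 8 had higher means in shRNA OS, with a median difference of 0.39, 5 at an unadjusted p under 0.05, and Phex at 3.32, Smpd3 at 1.5 and Dmp1 at 1.15, none passing over all genes. Of 5 lymphatic genes, whose mean level ran from 6.67 to 6.95 in shRNA OS and from 6.87 to 7.35 in Cre:lox OS, Pdpn, which osteocytes and fibroblasts also express, did not overlap between the models (-1.92). Mmrn1 (0.44), Lyve1 (-0.17) and Prox1 (0.07), the factor that defines lymphatic endothelium, overlapped. Prox1 stayed between 5.74 and 6.26 in all 8 tumours, with means of 5.99 in shRNA OS and 5.92 in Cre:lox OS. Both means lie below the 25th percentile of mean levels over all genes (6.17), where changes may not show. Its narrow range therefore cannot be weighed against that of Flt4, which ran from 6.88 to 9.36 over the same tumours.

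A pattern between single tumours crossed that between models. In Cre:lox OS replicates 2 and 3 most endothelial genes were low together. These tumours held the 2 lowest values of 18 of the 32 genes, where the same held for 605 of 19938 genes (3.03%). The 18 genes were Kdr, Flt4, Tek, Tie1, Aplnr, Sox17, Sox18, Pecam1, Cdh5, Cldn5, Icam2, Podxl, Emcn, Egfl7, Mmrn2, Plvap, Ramp2 and Nos3. The pair was picked after its values were seen, so these counts are descriptions and carry no test. Measured as each gene's distance from its own mean, the median endothelial gene stood at -0.34 in Cre:lox OS replicate 2 and -0.48 in replicate 3. It stood at 0.28 in Cre:lox OS replicate 1 and 0.13 in replicate 4, and at -0.11, 0.005, 0.15 and 0.31 in shRNA OS replicates 1 to 4. The 2 low tumours came from different bones, the humerus and the tibia, and both were Rbfl/+. The highest values also gathered in a few tumours. In shRNA OS replicate 4 there were 11 genes at their highest, where 10.8% of all genes were. In Cre:lox OS replicate 1 there were 9, where 9.11% of all genes were.

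Other genes of the set did not have both of their 2 lowest values in Cre:lox OS replicates 2 and 3, though some were lowest in 1 of them. Apln was highest in these 2 tumours, at 9.75 and 9.10. Angpt2 was 8.97 in Cre:lox OS replicate 2, second to shRNA OS replicate 4, and 7.85 in replicate 3. Eng was lowest in Cre:lox OS replicate 3 (9.29), but 10.54 in replicate 2. Vwf, Fli1, Flt1, Sox7, Tal1, Ecscr, Clec14a, Erg, Esam, Robo4 and S1pr1 also had at least 1 of their 2 lowest values elsewhere. Of these, Fli1, Flt1, Ecscr and Clec14a were lowest in Cre:lox OS replicate 2, and Erg, Esam and Robo4 in replicate 3. The other low value of Clec14a was in shRNA OS replicate 1 (6.34). S1pr1 was lowest in Cre:lox OS replicate 4 (9.78), and Vwf in shRNA OS replicate 4 (7.39).

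Among the 45 other endothelial genes, these 2 tumours held the 2 lowest values of 12 (26.7%), and the median gene stood at -0.23 and -0.24. The phosphatase gene Ptprb, whose product acts on Tek, is an example, at 8.21 and 8.15 against 8.85 to 9.77 elsewhere, and Cd34 another, at 10.06 and 10.17 against 10.42 to 11.58. Both examples were chosen after their values were seen. The same held for 1 of 15 pericyte and smooth muscle genes and for none of 14 leukocyte and macrophage genes.

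Hypoxia and glycolysis genes ran the other way. These 2 tumours held the 2 highest values of 7 of 13, where the same held for 3.04% of all genes, and the median gene stood at 0.56 and 0.71. In shRNA OS replicates 1 to 4 it stood at 0.007, -0.42, -0.44 and -0.49. The glucose transporter Slc2a1 was 10.86 and 11.33 in the 2 tumours against 8.92 to 10.38 elsewhere. The oxygen sensor Egln3 was 10.57 and 10.10 against 7.65 to 9.15, and the glycolytic enzyme Pgk1 12.03 and 12.40 against 10.52 to 11.84. Between the models, 11 of the 13 lay lower on average in shRNA OS (median difference -0.75). Of the 13, 7 were lower at an unadjusted p under 0.05 (53.8%, against 6.02% of all genes). Slc2a1, Egln3 and Pgk1 had differences of -1.32, -1.64 and -1.10, with limma adjusted p of 0.203, 0.203 and 0.156. Not every gene of the hypoxia list peaked in the 2 tumours. Ldha was 12.92 and 12.87 there and highest in shRNA OS replicate 3 (13.16). Ndrg1 was 12.01 and 11.85 there and highest in shRNA OS replicate 4 (12.83). Apln and Vegfa are known targets of the hypoxia response, and Vegfa was likewise highest in these 2 tumours. The ligand Adm was not, at 7.29 and 7.42, against 7.88 in both shRNA OS replicate 4 and Cre:lox OS replicate 1. Osteoblast and bone matrix genes stood at -0.005 and -0.28, and in Cre:lox OS replicate 4, where endothelial genes were high, at -0.61. Leukocyte and macrophage genes stood at 0.02 and 0.85 in the 2 tumours and at 0.85 in Cre:lox OS replicate 4. The part of any of these in the endothelial levels was not tested.

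**Figure D4:**
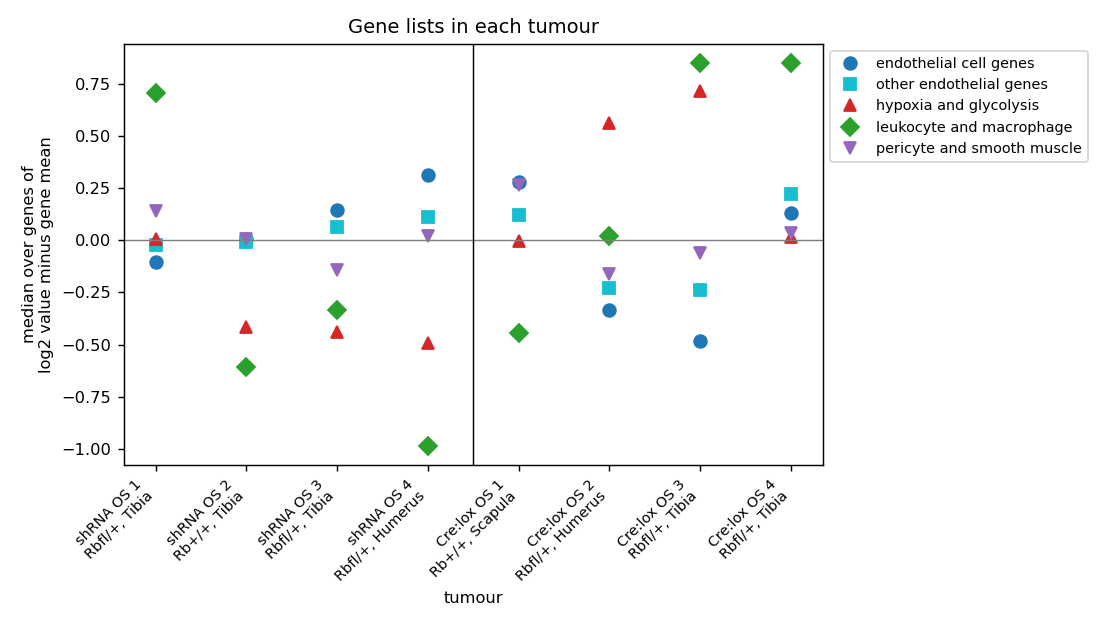
Median over the genes of each list of the log2 value minus the gene's own mean, in each of 8 tumours. In Cre:lox OS replicates 2 and 3 both endothelial lists lie below 0 and hypoxia and glycolysis genes at 0.56 and 0.71, while leukocyte and macrophage genes lie at 0.02 and 0.85.

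How closely each gene followed Cdh5 over the 8 tumours was measured for the other 31 endothelial genes and 5 genes of other lists, 36 relations in all. Of the 31, 29 correlated positively, with a median Pearson r of 0.729. By the exact two-sided permutation test of all 40320 pairings, 8 relations passed after adjustment over the 36, all of endothelial genes. Only 5 genes of other lists were among the 36, and the share of all genes that would pass is not given here. The count therefore has no background to be set against. Pecam1 was closest, with r = 0.971 (permutation p = 7.44e-05, adjusted p = 0.00268) and Spearman's rho = 0.976 (permutation p = 0.000397, adjusted p = 0.0143). Tie1 had r = 0.952 (permutation p = 0.00176, adjusted p = 0.0211) and rho = 0.833 (permutation p = 0.0154, adjusted p = 0.111). For Kdr r was 0.929 (permutation p = 0.00109, adjusted p = 0.0196) and rho 0.952 (permutation p = 0.00114, adjusted p = 0.0205). Aplnr (r = 0.906), Mmrn2 (0.890), Egfl7 (0.888), Emcn (0.882) and Sox17 (0.878) each had a permutation adjusted p of 0.0315. By rho only Pecam1 and Kdr passed.

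At the other end stood genes that did not track the cadherin. Angpt2 had r = 0.0439 and rho = 0.19, and S1pr1 r = 0.0775 and rho = 0.119, with permutation adjusted p from 0.725 to 0.917 for both measures. Vwf had r = 0.121 and Tal1 r = -0.1. Apln was negative, with r = -0.637 (permutation p = 0.0904, adjusted p = 0.155) and rho = -0.405 (permutation p = 0.327, adjusted p = 0.392). Vegfa, from the ligands, had r = -0.792 (permutation p = 0.0219, adjusted p = 0.0608) and rho = -0.452 (permutation p = 0.267, adjusted p = 0.357). Rgs5 of pericytes (r = -0.173), Csf1r of macrophages (-0.451), Pf4 of platelets (-0.54) and Prox1 (0.428) had permutation adjusted p of 0.246 or more.

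The 2 tumours farthest from the median of Cdh5 were the low pair, Cre:lox OS replicates 2 and 3. Without them r was 0.935 for Pecam1, 0.824 for Kdr, 0.776 for Tie1, 0.689 for Aplnr, 0.582 for Mmrn2, 0.403 for Egfl7, 0.61 for Emcn and 0.653 for Sox17. The median over the 31 genes dropped to 0.388, r for Apln became 0.304 and that for Vegfa 0.0349. The negative relations of Apln and Vegfa thus rested on the low pair. No relation passed over these 6 tumours. With 720 pairings the permutation p is 0.00139 at the lowest, which for 1 relation alone adjusts to 0.05, not under the threshold. A pass needed more than 1 relation at that lowest p, so the test was weak here and the values of r are compared. Taken as deviations from the model means, the median r was 0.749 and 13 relations passed. Such deviations cancel within each model and cannot be exchanged freely between models, so the permutation p is approximate and may be too small. All 36 share the same 8 arrays, so array-wide differences enter each of them. The count of 8 also moved with single tumours. Dropping shRNA OS replicate 1, 2 or 4 gave 1, 14 and 4, and dropping Cre:lox OS replicate 1, 2 or 3 gave 4, 1 and 2.

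**Figure D5:**
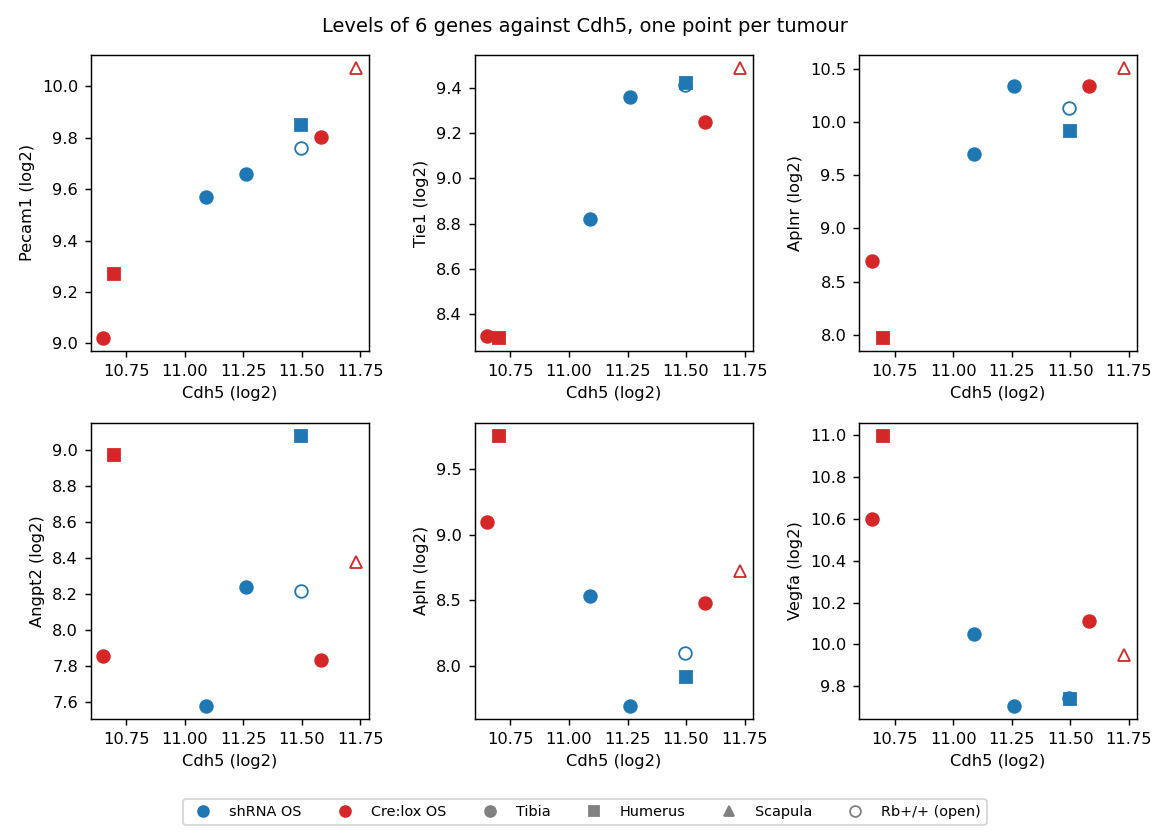
Log2 values of Pecam1, Tie1, Aplnr, Angpt2, Apln and Vegfa (y axes) against Cdh5 (x axis), each point a tumour, with model by colour, bone by symbol and Rb+/+ tumours open. Pecam1 is higher with Cdh5 over the whole range, Angpt2 is scattered, and in the Apln and Vegfa panels the 2 Cre:lox OS tumours with low Cdh5 stand high.

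The Rb comparison set 6 Rbfl/+ tumours against 2 Rb+/+ tumours, in a fit with a term for model. The endothelial genes leaned towards lower means in Rbfl/+, 24 of 32 (47.0% of all genes were higher there), with a median difference of -0.17 against -0.02 for all genes. With quantile normalization the median was -0.30. Of the 2 Rb+/+ tumours, shRNA OS replicate 2 had the array least like the others, with the smallest interquartile range (2.59). No gene passed limma's test over all genes (0.00%), and 1 endothelial gene reached an unadjusted p under 0.05, where 4.73% of all genes did (3.09% higher and 1.64% lower). It was Cldn5, with 9.25 ± 0.59 (SD, n = 6) against 10.02 ± 0.30 (SD, n = 2), a difference of -0.78 (SE 0.27, limma adjusted p = 0.836). Both Rb+/+ tumours, at 10.24 and 9.81, lay above all Rbfl/+ tumours except shRNA OS replicate 4 (10.17), which lay between them. Egfl7 (-0.52, SE 0.25), Tie1 (-0.54, SE 0.30), Cdh5 (-0.48, SE 0.27), Nos3 (-0.26, SE 0.16) and Clec14a (-0.61, SE 0.37) followed. All 7 junction and surface genes had lower means in Rbfl/+. The factors Sox7, Fli1, Sox18 and Tal1 had higher ones, by 0.20 or less. In none of the 32 did the genotypes separate without overlap, against 4.63% of all genes.

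This lean rested on single tumours. When Cre:lox OS replicate 1 was left out, the only Rb+/+ tumour was shRNA OS replicate 2, and the median difference was 0.06. Egfl7 then came to -0.24, Tie1 to -0.22, Cdh5 to -0.21, Nos3 to -0.08 and Clec14a to -1.08. When shRNA OS replicate 2 was left out the median was -0.53, and Egfl7 came to -0.80, Tie1 to -0.87, Cdh5 to -0.75, Nos3 to -0.45 and Clec14a to -0.13. When Cre:lox OS replicate 4 was left out, 6 genes had an unadjusted p under 0.05, a count without the share of all genes in that run. In the first 2 fits the lone Rb+/+ tumour is assumed to vary like the others. The low pair of Cre:lox OS tumours both belonged to the Rbfl/+ group. Of the other lists, the leukocyte and macrophage genes were higher in Rbfl/+ in 14 of 14, with a median difference of 0.64 and Csf1r at 0.50. Of the other endothelial genes 32 of 45 had lower means. The semaphorin receptor gene Plxnd1 (-0.50) had the smallest limma p of these. It was the only 1 of the 45 without overlap (2.22%, against 4.63% of all genes). Genes of smallest p in the remaining lists were Fgf2 (0.58), Mcam (-0.42), Lyve1 (-0.46), Gata1 (-0.29), Epb42 (-0.25), Pdk1 (0.81) and Phex (-1.58), all with limma adjusted p = 0.836.

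The comparison of bone sites set 5 tibial tumours against the other 3, of the humerus or scapula. Its fit also held a term for model. Here Angpt2 was the gene of smallest limma p in the set. It was 7.58, 8.22 and 8.24 in the tibial shRNA OS tumours and 9.08 in the humeral tumour, and in Cre:lox OS it was 7.85 and 7.83 in tibial tumours, 8.97 in the humeral and 8.37 in the scapular tumour. Every tibial tumour lay below every other tumour, in both models. The fitted difference, which holds the model term, was -0.93 (SE 0.22), with 7.94 ± 0.28 (SD, n = 5) against 8.81 ± 0.38 (SD, n = 3). It did not pass over all genes (limma adjusted p = 0.647). It was the only endothelial gene whose sites did not overlap, 1 of 32 (3.12%), a share near the 2.60% of all genes. No gene passed over all genes (0.00%).

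Vwf was the other gene with an unadjusted p under 0.05 by site, 2 of 32 (6.25%) where 5.64% of all genes reached it (2.32% higher and 3.33% lower). Its fitted difference was 0.40 (SE 0.15, limma adjusted p = 0.816), with means of 7.91 ± 0.28 (SD, n = 5) in tibial and 7.62 ± 0.27 (SD, n = 3) in the other tumours, though the tibial shRNA OS tumours (7.72, 7.85 and 7.61) lay below the scapular tumour (7.91). Erg (-0.46, SE 0.22), Robo4 (-0.49, SE 0.25), Esam (-0.38, SE 0.23) and S1pr1 (-0.34, SE 0.22) came next. They depended on single Cre:lox OS tumours. Without replicate 3, Erg came to -0.27, Robo4 to -0.29 and Esam to -0.17, and without replicate 4 S1pr1 came to -0.18 and Esam to -0.61. Without replicate 1, S1pr1 came to -0.21. The guidance receptor Robo4 was 8.30, 8.52, 8.86 and 9.03 in shRNA OS and 9.01, 8.36, 7.76 and 8.60 in Cre:lox OS. Erg was 8.37, 8.36, 8.65 and 8.94 in shRNA OS and 8.91, 8.45, 7.82 and 8.63 in Cre:lox OS. Esam was 9.23, 9.09, 9.30 and 9.64 in shRNA OS and 9.73, 9.30, 8.71 and 9.66 in Cre:lox OS. In all 3 the humeral shRNA OS tumour and the scapular tumour were among the highest, and the humeral Cre:lox OS tumour was not.

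In all, 28 of 32 endothelial genes had a fitted difference below 0, lower in tibial tumours, with a median of -0.17 against -0.03 for all genes, of which 44.5% were higher. Aplnr, Vwf, Clec14a and Ecscr were the exceptions. By group means, without the model term, 25 of 32 were lower, and Tek, Egfl7 and Mmrn2 were higher too. The median came to -0.04 when the scapular tumour was left out, -0.39 when the humeral Cre:lox OS tumour was, and -0.07 and -0.31 when Cre:lox OS replicate 3 or 4 was. In Rbfl/+ tumours alone it was -0.03. Of counts at an unadjusted p under 0.05, dropping shRNA OS replicate 4 gave 1 and dropping Cre:lox OS replicate 4 gave 5. The shares of all genes in those runs are not given here. Angpt1, the other main Tek ligand, also had a fitted difference below 0 (-1.33, SE 0.38), as did Adgrf5, an adhesion receptor of capillaries (-1.37), the pericyte proteoglycan Cspg4 (-0.91), Smpd3 (-0.87) and Alas2 (-0.65). C1qc (1.41), Pdpn (1.27), Pf4 (1.11) and Car9 (0.46) had fitted differences above 0. None passed over all genes. For leukocyte and macrophage genes 13 of 14 fitted differences were above 0, with a median of 1.10, and hypoxia and glycolysis genes had a median of 0.06.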

How the data were processed

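RNA of 8 tumours was measured on 1-colour arrays, 1 per tumour. The authors deposited log2 values made by RMA, as the submitters' processing notes state, with mm9 named as a build. Neither a version nor a filter is named in those notes. Of 35556 probe sets, 21789 had a single symbol in the platform annotation, and the probe set of highest mean represented each of 19938 genes. The members and lists were chosen with earlier results of these data known. Groups came from the labels, and replicates, numbered in accession order, pair no samples. Nothing states how tumours relate to animals beyond a tumour number each, so p-values measure the spread between tumours. Differences were tested with limma 3.58.1 (R 4.3.3, lmFit and eBayes) over all genes, adjusted by Benjamini and Hochberg's method (threshold 0.05), and the code was tested on simulated data. Differences are log2 differences of RMA values. Every endothelial gene is named. Values per tumour are given for the 10 of smallest p between models, the 6 of smallest p for Rb genotype and for site, and Cdh5, Pecam1, Kdr and Tek. Of each other list the 3 of smallest p between models and the 1 of smallest p for Rb genotype and for site are named, with Vegfa, Rgs5, Csf1r, Pf4 and Prox1. Others were chosen after their values were seen. A planned relation of Cdh5 to Runx2 was not analysed here. Promoter windows are RefSeq's (GRCm38.p6), another build than the arrays', and served as sequence only.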

Additional observations from a re-analysis of the deposited data

Results flagged for a closer look

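In 74 groups of 4 tumours, the most distant tumour's gap to the nearest was set against the group's range by Dixon's rule, with a limit of 0.829. Of these, 4 passed, where chance alone passes some 1 in 20, about 3.7 here. Tie1 was 8.82 in shRNA OS replicate 1, against 9.36 to 9.42 in the other shRNA OS tumours. Mmrn2 was 8.46 in the same tumour, against 8.71 to 8.76, and Vegfa was 10.05 in it, against 9.71 to 9.74. Sox7 was 6.97 in shRNA OS replicate 2, whose array was least like the others, against 7.61 to 7.67.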

How the results depend on the processing

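No endothelial gene passed limma's adjusted threshold for model, Rb genotype or site under any alternative run, and the median differences kept their sign except for Rb genotype without Cre:lox OS replicate 1 (0.0569). Leaving out single tumours, the median ranged from 0.06 to 0.30 for model, -0.53 to 0.06 for Rb genotype and -0.39 to -0.04 for site. Counts at an unadjusted p under 0.05 ranged from 2 to 8, 1 to 6 and 1 to 5. With quantile normalization they were 8 for model and 6 for Rb genotype, and centring arrays gave 2 for Rb genotype. Rbfl/+ tumours alone gave 9 and tibial tumours alone 1 for model, and no covariate gave 0 for Rb genotype and 1 for site. The cause of these moves was not tested, and the share of all genes in each run is not given here. Between models, Cdh5 ranged from -0.0009 to 0.36 and Pecam1 from -0.0063 to 0.34 with single tumours left out. Relations to Cdh5 past the threshold numbered 14 with quantile normalization. Deviations from model means gave 13, by a permutation test that is only approximate there. Without the 2 tumours farthest from the median of Cdh5 the number was 0, by a test in which 1 relation alone could not pass. There r was 0.304 for Apln and 0.0349 for Vegfa. Leaving out single tumours gave 1 to 14. On that basis r ranged from -0.187 to 0.476 for Angpt2 and from -0.144 to 0.469 for Vwf. Quantile normalization and centring shifted the median difference of all genes between models by 0.04 and 0.05. No paired analysis was possible because the labels pair no tumours. Signal over background was not analysed here.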
